A study of Mus musculus with 24 samples.

Results

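The liver makes most of the proteins of the complement and clotting systems that circulate in plasma, and the RNA of 43 such genes was followed here in the livers of mice with non-alcoholic steatohepatitis. The genes were chosen by name: 18 encode complement recognition molecules, components and inhibitors, and 25 encode clotting, contact and fibrinolysis factors and the proteins that restrain them. All 43 were among the 14293 genes of the deposited table, and all 43 were among the 11562 genes that reached 0.5 FPKM in at least 8 samples and were tested. FPKM is the number of sequenced fragments divided by the length of the gene and by the depth of the library. The study comprised 24 mouse liver samples in 3 groups of 8, given vehicle, vutiglabridin or semaglutide. Vutiglabridin is named in the study's title as an agonist of paraoxonase-2, and semaglutide is an agonist of the glucagon-like peptide-1 receptor. All 3 groups carry the diseased liver per the series' description, and no healthy liver was analysed here. The labels used here give neither the strain, sex and age of the animals nor the diet, dose and length of treatment. They do not say that the 8 samples of a group came from 8 animals, and the p-values therefore cover the variation among samples, which may be technical.

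Complement is a chain of plasma proteases and binding proteins that marks particles for uptake and can puncture membranes. Mannose-binding lectins and the C1 complex start it, convertases built from C2, C4, C3 and factor B amplify it, and C5 to C9 assemble into the membrane attack complex. Clotting proceeds through a cascade of serine proteases to thrombin, which turns fibrinogen into fibrin, and plasmin, made from plasminogen, dissolves the clot again. Hepatocytes secrete nearly all of these proteins, several of them as acute phase reactants whose genes respond to interleukin-6.

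Several of these genes lie next to each other. On GRCm38 (GENCODE M21), the fibrinogen chain genes Fgg (ENSMUSG00000033860, chr3:83007724-83015049), Fga (ENSMUSG00000028001, chr3:83026076-83033627) and Fgb (ENSMUSG00000033831, chr3:83040141-83049863) form a cluster in which Fgb is on the minus strand. F7 (chr8:13026034-13035809), F10 (chr8:13037308-13056676) and Proz (chr8:13060914-13076026) follow each other on the plus strand. F11 (chr8:45241174-45262031) and Klkb1 (chr8:45266689-45294859) are neighbours on the minus strand. C8b (ENSMUSG00000029656, chr4:104766317-104804548, plus strand) and C8a (ENSMUSG00000035031, chr4:104815679-104876398, minus strand) encode subunits of the same complement component and point towards each other.

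The promoters of the fibrinogen cluster and of the C8 pair are shown because, against vehicle, the fibrinogen chains moved together and C8a and C8b did not. Each is RefSeq sequence of GRCm38.p6, from 250 bases before to 50 bases after the annotated start, printed 5′ to 3′ on the strand of the gene. Capitals mark matches, on either strand, to 3 motifs of liver factors: CAAAGTCCA for HNF4, TTNNGNAA for C/EBP and TTCNNNGAA for STAT. The windows are chr3:83025903-83026202 (plus) for Fga, chr3:83049814-83050113 (minus) for Fgb, chr3:83007474-83007773 (plus) for Fgg, chr4:104876349-104876648 (minus) for C8a and chr4:104766067-104766366 (plus) for C8b.
Fga: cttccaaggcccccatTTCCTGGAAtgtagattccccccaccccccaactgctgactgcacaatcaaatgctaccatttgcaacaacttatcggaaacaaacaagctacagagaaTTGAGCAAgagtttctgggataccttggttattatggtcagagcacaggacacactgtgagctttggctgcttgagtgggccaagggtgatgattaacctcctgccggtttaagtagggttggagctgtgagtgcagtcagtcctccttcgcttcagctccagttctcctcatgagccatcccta
Fgb: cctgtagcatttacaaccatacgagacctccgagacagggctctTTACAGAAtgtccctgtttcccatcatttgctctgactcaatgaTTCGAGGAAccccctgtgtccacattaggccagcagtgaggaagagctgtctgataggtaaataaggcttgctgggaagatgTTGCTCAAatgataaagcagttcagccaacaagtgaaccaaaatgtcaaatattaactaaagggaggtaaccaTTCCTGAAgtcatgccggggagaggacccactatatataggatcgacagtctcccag
Fgg: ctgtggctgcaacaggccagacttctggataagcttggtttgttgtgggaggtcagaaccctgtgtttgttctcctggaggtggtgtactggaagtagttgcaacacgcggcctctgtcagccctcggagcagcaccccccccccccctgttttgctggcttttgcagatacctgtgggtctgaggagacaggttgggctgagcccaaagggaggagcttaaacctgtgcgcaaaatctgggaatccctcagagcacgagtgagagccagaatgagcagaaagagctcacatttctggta
C8a: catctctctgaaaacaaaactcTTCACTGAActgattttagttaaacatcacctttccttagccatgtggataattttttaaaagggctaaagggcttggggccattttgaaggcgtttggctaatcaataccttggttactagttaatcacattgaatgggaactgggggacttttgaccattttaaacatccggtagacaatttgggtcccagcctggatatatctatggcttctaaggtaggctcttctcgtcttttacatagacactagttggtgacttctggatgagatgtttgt
C8b: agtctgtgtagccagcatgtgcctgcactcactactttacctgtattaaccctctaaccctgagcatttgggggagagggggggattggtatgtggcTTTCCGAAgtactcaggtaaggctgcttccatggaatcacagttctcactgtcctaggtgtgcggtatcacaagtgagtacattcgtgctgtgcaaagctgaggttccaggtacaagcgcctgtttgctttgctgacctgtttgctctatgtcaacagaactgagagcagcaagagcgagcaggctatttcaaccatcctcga
Promoters of 34 of the 43 genes were in the RefSeq table. The STAT motif was present in 9 of the 34 (26.5%), against 8.47% of all 27025 promoters of the same length, and the C/EBP motif in 20 (58.8%, against 40.7% of all). None of the 34 held the HNF4 letters, which 0.477% of all promoters hold. The Fga window held 1 C/EBP and 1 STAT match and the Fgb window 3 and 1, with overlaps between motifs allowed, whereas these letters were not in the Fgg window. The C8a window held 1 STAT match and the C8b window 1 C/EBP match. A match is a run of letters and not a measured binding site.

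Steps of 1 fragment in the low FPKM values implied about 12 to 19.8 M (mega) fragments per vehicle library, 6.0 to 15.3 per vutiglabridin library and 9.3 to 12.4 per semaglutide library. The FPKM total was higher in the vutiglabridin libraries (344300 to 385600) than in most vehicle libraries (318300 to 352600), and it was 328800 to 372400 with semaglutide. Hepatocyte markers were abundant in all libraries, with summed FPKM of 38980 to 49580 with vehicle, 44970 to 59010 with vutiglabridin and 44630 to 56570 with semaglutide. Of the 10 hepatocyte markers measured, 2 rose with vutiglabridin and 5 with semaglutide, and none fell. All 5 macrophage markers fell with vutiglabridin and 3 of 5 with semaglutide, and 4 of 7 stellate cell or fibroblast markers fell with each drug. Of a separate list of 5 markers of resident Kupffer cells, none was called with vutiglabridin and 1 fell with semaglutide. The 3 platelet markers measured summed to at most 7.17 FPKM in any library. In bulk liver, fewer cells of a type and less RNA per cell cannot be told apart.

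With vutiglabridin, 23 of the 43 genes were higher than with vehicle and none was lower. The test was limma's moderated test on log2(FPKM + 1), 2-sided, with Benjamini-Hochberg adjustment over all 11562 genes at a threshold of 0.05, and it is the source of every adjusted p below unless another test is named. Over all genes tested, 6.53% were called higher and 8.78% lower. The median log2 difference of the 43 was 0.22, against 0.01 over all genes and 0.23 over the 10 hepatocyte markers. The increases lay mainly on the clotting side, where 19 of 25 genes rose, while 4 of 18 complement genes rose. In 6 of the 43 genes (Masp2, C8b, Kng1, Fgb, Plg and Serpinf2) all 8 vutiglabridin values lay above all 8 vehicle values, which held for 0.77% of all genes, and in none did they all lie below, which held for 0.969%. The count depends on scaling and on a few libraries: 11 genes were higher and 1 (C1s1) lower after rescaling to TPM, 6 were higher after quantile normalization, and 14 were higher without vutiglabridin replicates 2 and 7, where Mbl2, Cfi, Kng2, F12, Fga, Serpind1, Hrg, Cpb2 and Vtn lost their calls. The 11 were C8b, Kng1, F7, F10, Fgb, Fgg, Proz, Serpinc1, Plg, Serpinf2 and Hgfac, and the 6 were C8b, F7, F10, Proz, Serpinf2 and Hgfac. With each library centred on its hepatocyte markers, only C8b, F7, Fgb and Fgg remained higher, and 8 other members were called lower. Over all 11562 genes, that centring called 109 higher and 7502 lower. C8b and F7 alone kept their call under every alternative run.

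**Figure D1:**
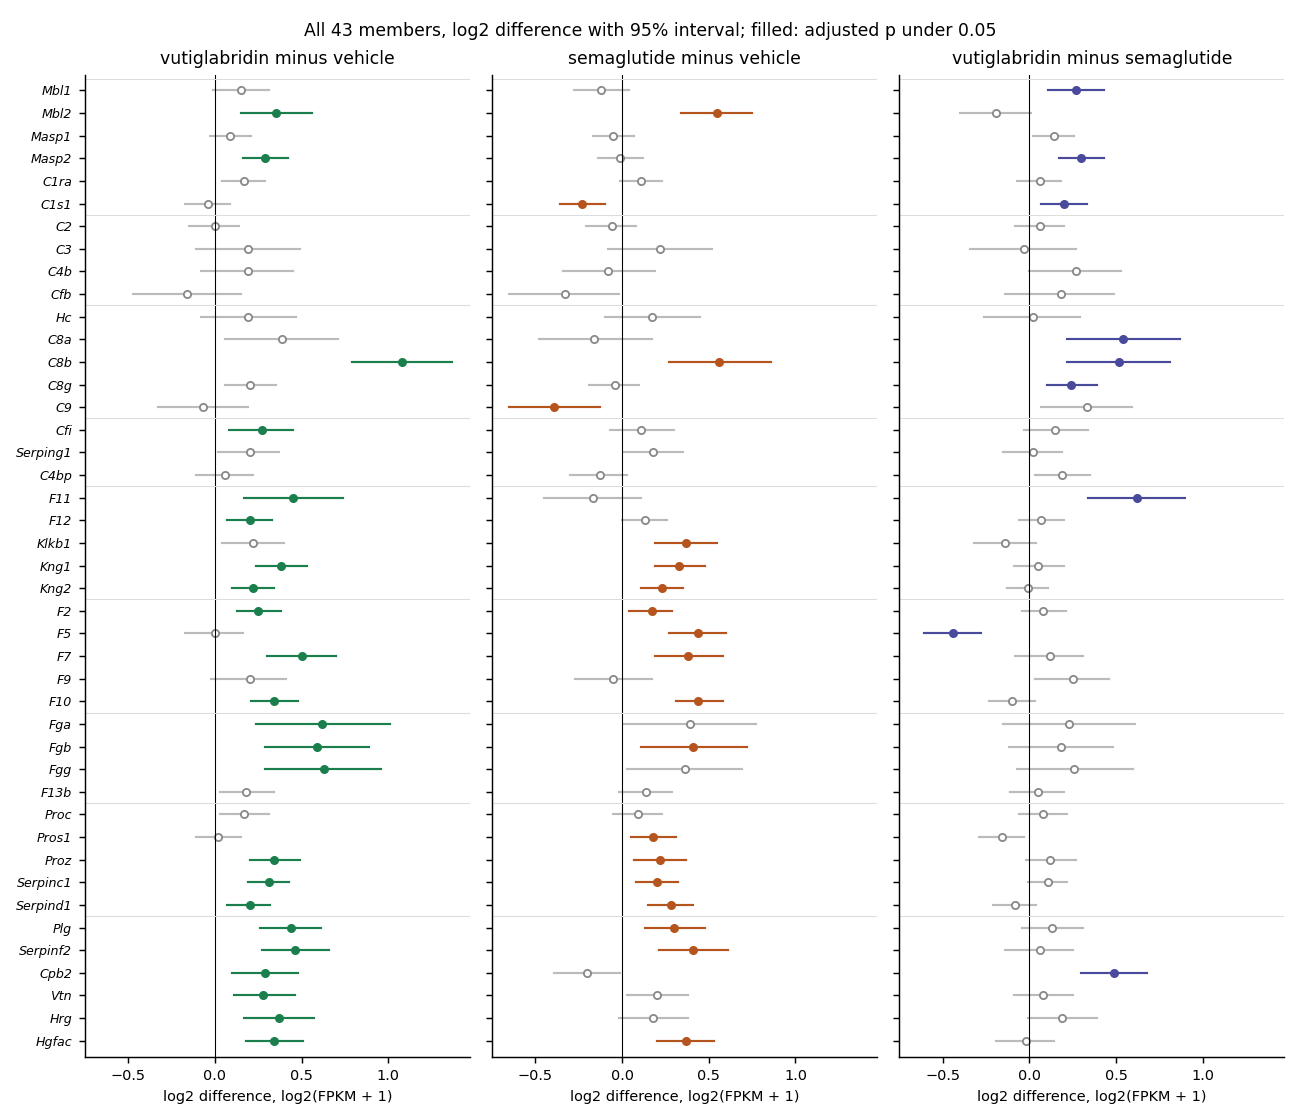
Log2 differences of log2(FPKM + 1) for each of the 43 genes (rows, in blocks by role) between vutiglabridin and vehicle, semaglutide and vehicle, and the 2 drugs, with 95% intervals. Filled points passed an adjusted p of 0.05 (limma): 23 genes higher in the left panel, 17 higher and 2 lower in the middle panel, and 8 higher and 1 lower in the right panel.

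Among the recognition molecules and initiating proteases, Masp2 and Mbl2 rose. Masp2, the mannose-binding lectin-associated protease that cleaves C4 and C2, ranged from 61.1 to 73.0 FPKM with vehicle (median 66.0) and from 73.6 to 90.2 with vutiglabridin (median 81.9). The groups did not overlap, and the log2 difference was 0.29 (SE 0.06, adjusted p = 0.00328). Mbl2, a mannose-binding lectin, had a vehicle range of 208.1 to 320.6 FPKM (median 242.1) and a vutiglabridin range of 224.0 to 396.9 (median 322.9), with a log2 difference of 0.35 (SE 0.10, adjusted p = 0.0171). Of its vutiglabridin values, 5 of 8 lay above the vehicle range, and the call was lost without vutiglabridin replicates 2 and 7 (adjusted p = 0.0597). Mbl1, the other lectin gene of the mouse, went from 93.4 to 116.3 FPKM with vehicle (median 114.1) and from 104.0 to 151.0 with vutiglabridin (median 118.4), a difference of 0.15 that did not pass the test (adjusted p = 0.204). Masp1, C1ra and C1s1, the latter encoding the C1s protease, had differences of 0.09, 0.17 and -0.04 and none passed.

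No gene of the convertases passed the test with vutiglabridin. C3, the central component, was the most abundant of the 43 with vehicle (1287 ± 161 FPKM, SD, n = 8) and spread widely with vutiglabridin (1523 ± 505), from 909.3 to 2479. C4b (266.8 ± 19.98 and 310.3 ± 71.71), C2 (11.4 ± 0.818 and 11.3 ± 1.07) and Cfb (2.98 ± 0.981 and 2.57 ± 0.958), which encodes factor B, had overlapping groups. Annotated exons of C2 and Cfb are shared with a read-through gene, and reads of C4b can be shared with its near-identical copy C4a, so these values are uncertain for the single genes.

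C8b, which encodes the beta chain of C8, a component of the membrane attack complex, had the largest difference of the 43 genes. It measured 24.9 to 50.2 FPKM with vehicle (median 33.5) and 51.7 to 93.8 with vutiglabridin (median 73.2), with no overlap. The log2 difference was 1.08 (95% interval 0.79 to 1.37, adjusted p = 3.2e-05), a 2.12-fold change on the log2(FPKM + 1) scale. C8a, the alpha chain gene next to it, was 121 to 172 FPKM with vehicle and 133 to 231 with vutiglabridin, a difference of 0.39 (SE 0.16) that did not pass (adjusted p = 0.0982). C8g, the gamma chain gene, differed by 0.20 (adjusted p = 0.0520), Hc, which encodes C5, by 0.19 and C9 by -0.07, and none of these passed. Of the inhibitors, Cfi, whose product cleaves C3b and C4b, rose from 267 ± 8.07 to 326 ± 66.1 FPKM (log2 difference 0.27, adjusted p = 0.0475), and lost its call on leaving out any of 12 single libraries (adjusted p 0.0562 to 0.110), all 8 vehicle replicates and vutiglabridin replicates 1, 2, 7 and 8. Serping1, the C1 inhibitor, and C4bp differed by 0.20 and 0.06 and did not pass.

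In the contact system, which starts clotting on charged surfaces and releases bradykinin, 4 of 5 genes rose. Kng1, a kininogen gene, had vehicle values of 441.3 to 519.0 FPKM (median 466.3) and vutiglabridin values of 534.7 to 733.7 (median 597.4). These ranges did not overlap, and the log2 difference was 0.38 (SE 0.07, adjusted p = 0.000645). Its paralog Kng2 ranged from 94.5 to 110.1 FPKM (median 101.3) and from 106.8 to 133.8 (median 120.4), with a difference of 0.22 (SE 0.06, adjusted p = 0.0108) that did not pass without vutiglabridin replicates 2 and 7 (0.0654). Reads of the 2 kininogen genes can be assigned to either. F11, factor XI, rose from 22.1 ± 4.22 to 30.6 ± 4.52 FPKM (log2 difference 0.45, adjusted p = 0.0244), with the call lost without vehicle replicate 2, vutiglabridin replicate 1 or vutiglabridin replicate 8 (adjusted p 0.0541 to 0.0560). F12, factor XII, rose from 250.5 ± 18.20 to 288.0 ± 26.99 FPKM (0.20, adjusted p = 0.0338), and lost its call without any of 7 single libraries, vehicle replicates 1, 5, 6 and 7 and vutiglabridin replicates 2, 4 and 7 (0.0556 to 0.0753). Klkb1, prekallikrein, differed by 0.22 and did not pass (adjusted p = 0.0827).

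Of the clotting proteases and cofactors, F7, F10 and F2 rose and F5 and F9 did not pass. F7, the factor that tissue factor activates, ranged from 29.4 to 42.0 FPKM with vehicle (median 38.9) and from 41.8 to 63.5 with vutiglabridin (median 51.8), and 7 of 8 values lay above the vehicle range. Its log2 difference was 0.50 (SE 0.10, adjusted p = 0.000915). F10, the protease that makes thrombin, ranged from 115.9 to 148.4 FPKM (median 129.5) and from 142.2 to 201.4 (median 167.0), with 6 of 8 above the vehicle range and a difference of 0.34 (SE 0.06, adjusted p = 0.000780). F2, prothrombin, went from 336 ± 24.1 to 401 ± 34.6 FPKM (0.25, adjusted p = 0.00632). F5, the cofactor of F10, averaged 74.0 ± 7.21 FPKM with vehicle and 73.9 ± 8.90 with vutiglabridin (difference -0.00, 95% interval -0.17 to 0.16).

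All 3 fibrinogen chain genes rose with vutiglabridin, and 2 libraries stood above the rest. Fga ranged from 957.2 to 1178 FPKM with vehicle (median 1056) and from 973.5 to 3524 with vutiglabridin (median 1435). Fgb ranged from 726.9 to 837.9 (median 813.1) and from 886.3 to 2218 (median 1064), without overlap. Fgg ranged from 1029 to 1240 (median 1129) and from 1214 to 3364 (median 1480). The log2 differences were 0.62 for Fga (SE 0.19, adjusted p = 0.0234), 0.59 for Fgb (SE 0.15, adjusted p = 0.00725) and 0.63 for Fgg (SE 0.16, adjusted p = 0.00971). In all 3 genes replicates 7 and 2 were the highest of the vutiglabridin libraries. Without both, the differences were 0.33 (adjusted p = 0.111), 0.35 (0.0236) and 0.36 (0.0328), and Fga lost its call already without replicate 2 (0.0564). F13b, the carrier subunit of the fibrin-linking factor XIII, differed by 0.18 and did not pass (adjusted p = 0.103).

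**Figure D2:**
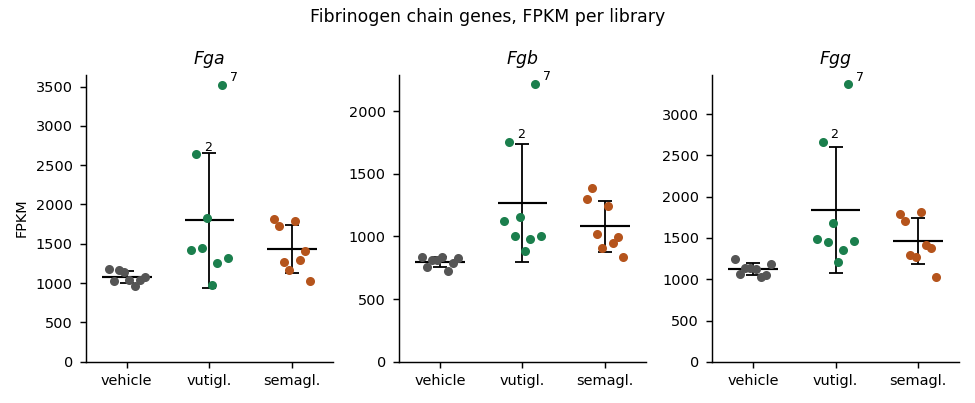
FPKM of the fibrinogen chain genes in each library (points), with mean and SD (bars) per group of 8; vutiglabridin replicates 2 and 7 are numbered. Replicate 7 reached 3524 FPKM for Fga, 2218 for Fgb and 3364 for Fgg, while the highest vehicle values were 1178, 837.9 and 1240.

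The same libraries were high for other acute phase genes. Serum amyloid genes Saa1 and Saa2 lay above the vehicle range in 3 vutiglabridin libraries (replicates 2, 4 and 7) and below it in 4. Saa1 measured 378 FPKM in replicate 2 and 528 in replicate 7, against 77.8 to 137 with vehicle. Replicate 7 was also the shallowest library, at about 6.0 M fragments, and the part of depth in its values was not tested. The 3 fibrinogen genes together held 1.92% of the FPKM total in replicate 2 and 2.38% in replicate 7, against 0.852% to 1.02% with vehicle. With semaglutide, Saa1 lay below the vehicle range in 7 libraries and above it in none. Against vehicle, Saa1 passed the test neither with vutiglabridin (0.15, adjusted p = 0.853) nor with semaglutide (-1.07, adjusted p = 0.0652). Saa2 did not pass either (0.22, adjusted p = 0.789, and -1.09, adjusted p = 0.0762).

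Among the anticoagulants 3 of 5 genes rose with vutiglabridin. Serpinc1, antithrombin, ranged from 182.5 to 222.9 FPKM with vehicle (median 201.5) and from 216.2 to 288.1 with vutiglabridin (median 253.9), a log2 difference of 0.31 (SE 0.06, adjusted p = 0.000765). Of the 8 vutiglabridin values, 7 lay above the vehicle range. Proz, protein Z, a cofactor in the inhibition of factor Xa, ranged from 48.0 to 61.6 FPKM (median 55.7) and from 59.1 to 79.1 (median 72.1), with a difference of 0.34 (SE 0.07, adjusted p = 0.00182). Serpind1, heparin cofactor II, rose from 215 ± 16.8 to 246 ± 20.4 FPKM (0.20, adjusted p = 0.0301) and lost its call without any of 7 single libraries, vehicle replicates 1, 2, 5 and 7 and vutiglabridin replicates 1, 2 and 8 (0.0511 to 0.0710). Proc, protein C, and Pros1, its cofactor protein S, differed by 0.17 and 0.02 and did not pass.

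Each of the 6 genes grouped as fibrinolysis factors and related plasma proteins rose with vutiglabridin. Plg, plasminogen, ranged from 455.1 to 569.0 FPKM with vehicle (median 475.1) and from 571.7 to 866.4 with vutiglabridin (median 652.2). Serpinf2, the antiplasmin that blocks plasmin, ranged from 199.0 to 255.6 FPKM (median 222.4) and from 256.4 to 386.3 (median 312.5). Neither gene overlapped between the groups, and the log2 differences were 0.44 for Plg (SE 0.08, adjusted p = 0.00106) and 0.46 for Serpinf2 (SE 0.10, adjusted p = 0.00170). Hrg, histidine-rich glycoprotein, differed by 0.37 (adjusted p = 0.0107) and Hgfac, the activator of hepatocyte growth factor, by 0.34 (adjusted p = 0.00488). Cpb2, the carboxypeptidase that slows clot lysis, differed by 0.29 (adjusted p = 0.0359) and Vtn, vitronectin, by 0.28 (adjusted p = 0.0251). Cpb2 lost its call without vehicle replicate 3, 6 or 7 or vutiglabridin replicate 1, 2 or 7 (0.0564 to 0.0851), and Vtn without vutiglabridin replicate 2 or 7 (0.0582 and 0.0593). Hrg lost its call without both of those libraries (0.0620).

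With semaglutide, 17 of the 43 genes were higher than with vehicle and 2 were lower (C1s1 and C9). Over all genes, 14.3% were higher and 12.7% lower. The median difference of the 43 was 0.18, against -0.01 over all genes and 0.24 over the 10 hepatocyte markers. All the clotting-side calls were increases, 15 of 25. Of the 18 complement genes 2 were higher and 2 lower, near the shares over all genes, and 14 were not called. In 5 genes (Kng1, F5, F10, Fgb and Serpind1) all semaglutide values lay above all vehicle values, against 4.09% of all genes, and in none did they all lie below, against 1.74%. After rescaling to TPM 13 remained higher, without F2, Fgb, Pros1 and Proz, and 4 were lower, Mbl1 and Cpb2 being added. With hepatocyte marker centring, Mbl2 and F10 remained higher and 14 members were called lower, C1s1 and C9 among them. Over all 11562 genes, that centring called 260 higher and 7280 lower. The 2 drug groups were compared with the same vehicle samples, so their counts against vehicle are not independent.

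Mbl2 had the largest called difference of the recognition genes with semaglutide, at 303.9 to 442.1 FPKM (median 360.9). All but 1 of these values exceeded the vehicle range, and the log2 difference was 0.55 (SE 0.10, adjusted p = 0.000225). Mbl1 had a range of 85.3 to 129.5 FPKM (median 100), and its difference of -0.12 did not pass. C1s1 fell, with values of 144.4 to 221.9 FPKM (median 186.8) against 202.6 to 235.5 with vehicle (median 217.4), so that 7 of 8 lay below the vehicle range (log2 difference -0.23, SE 0.06, adjusted p = 0.00737). Masp2 differed by -0.01, Masp1 by -0.05 and C1ra by 0.11. The 4 convertase genes and the 3 inhibitors did not pass, with differences from -0.33 for Cfb to 0.22 for C3.

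In the terminal pathway C8b rose and C9 fell with semaglutide. C8b ranged from 30.6 to 63.3 FPKM (median 51.4), with 5 of 8 values above the vehicle range and a log2 difference of 0.56 (SE 0.14, adjusted p = 0.00455). C9, whose product forms the ring of the membrane attack complex, ranged from 132.7 to 211.8 FPKM (median 176.8) against 177.0 to 250 with vehicle (median 236.7). All 8 values were below the vehicle mean, and the difference was -0.39 (SE 0.13, adjusted p = 0.0228). The C9 call was lost without semaglutide replicate 8 (adjusted p = 0.0511). C8a, C8g and Hc differed by -0.16, -0.04 and 0.17 and did not pass.

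Clotting cofactor F5 rose with semaglutide without overlap, from 64.5 to 81.6 FPKM with vehicle (median 76.2) to 83.8 to 115.3 (median 98.8). Its log2 difference was 0.44 (SE 0.08, adjusted p = 0.000226). F10 had the lowest p of the 43 genes in this comparison, with semaglutide values of 169.3 to 191.5 FPKM (median 174.1), all above the vehicle range, and a difference of 0.44 (SE 0.06, adjusted p = 1.59e-05). F7 averaged 48.5 ± 5.82 FPKM and differed by 0.38 (adjusted p = 0.00393). F2 differed by 0.17 (adjusted p = 0.0423), a call that 11 single libraries decide: it was lost without vehicle replicate 1, 2, 5, 6 or 7 or without any semaglutide replicate except 6 and 8 (0.0529 to 0.0814). F9 differed by -0.05 and did not pass.

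Klkb1 was called with semaglutide, at 30.5 to 46.8 FPKM (median 41.4) against 27.4 to 37.1 with vehicle (median 30.6), a log2 difference of 0.37 (SE 0.09, adjusted p = 0.00270). Kng1 ranged from 525.2 to 664.8 FPKM (median 606.2), above every vehicle value (0.33, SE 0.07, adjusted p = 0.00102). Kng2 ranged from 106.5 to 135.6 (median 120.1) and differed by 0.23 (SE 0.06, adjusted p = 0.00406). F11 and F12 differed by -0.17 and 0.13 and did not pass. Exons of Klkb1 are shared with another annotated gene on the same strand, so its reads can be split.

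Of the fibrinogen chains, Fgb alone was called with semaglutide in the main fit. The test between the drugs, given below, passed for none of the chains. Fga and Fgg were also called higher with semaglutide in a fit of vehicle and semaglutide alone and in the exact Wilcoxon test. Fgb ranged from 838.1 to 1386 FPKM (median 1007), against a highest vehicle value of 837.9, and differed by 0.41 (SE 0.15, adjusted p = 0.0372). That call was lost without vehicle replicate 2, 3, 6 or 7 or semaglutide replicate 1, 2 or 5 (0.0520 to 0.0779). Fga ranged from 1028 to 1821 FPKM (median 1351) and Fgg from 1023 to 1814 (median 1396), with differences of 0.39 (adjusted p = 0.120) and 0.36 (adjusted p = 0.0983). These 3 differences were below those with vutiglabridin over all 8 libraries, but not below the values of 0.33 for Fga, 0.35 for Fgb and 0.36 for Fgg that vutiglabridin had without its replicates 2 and 7. F13b differed by 0.14 and did not pass.

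Of the anticoagulants 4 of 5 rose with semaglutide. Serpind1 ranged from 234.3 to 285.4 FPKM (median 256.2) against 190.3 to 233.8 with vehicle (median 216.5), with no overlap (log2 difference 0.28, SE 0.06, adjusted p = 0.00146). Serpinc1 differed by 0.20 (adjusted p = 0.0106), Proz by 0.22 (0.0242) and Pros1 by 0.18 (0.0409). Serpinc1 lost its call with GC and exon length trends removed (0.13, adjusted p = 0.1002). Proz lost its call without vehicle replicate 1 or semaglutide replicate 1, 2 or 8 (0.0517 to 0.0543). Pros1 lost it without any of 10 single libraries, vehicle replicates 2, 3, 4 and 7 and all semaglutide replicates except 3 and 7 (0.0527 to 0.0939). Proc differed by 0.09 and did not pass.

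The fibrinolysis genes Plg and Serpinf2 rose with semaglutide, as did Hgfac. Serpinf2 ranged from 244.3 to 364.0 FPKM (median 276.0), with 7 of 8 values above the vehicle range (log2 difference 0.41, SE 0.10, adjusted p = 0.00239). Hgfac ranged from 56.4 to 73.2 FPKM (median 60.1) against 41.0 to 60.5 with vehicle (median 46.8), a difference of 0.37 (SE 0.08, adjusted p = 0.00139). Plg averaged 613 ± 74.3 FPKM and differed by 0.30 (adjusted p = 0.00928). Vtn, Hrg and Cpb2 differed by 0.20, 0.18 and -0.20, and none passed.

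**Figure D3:**
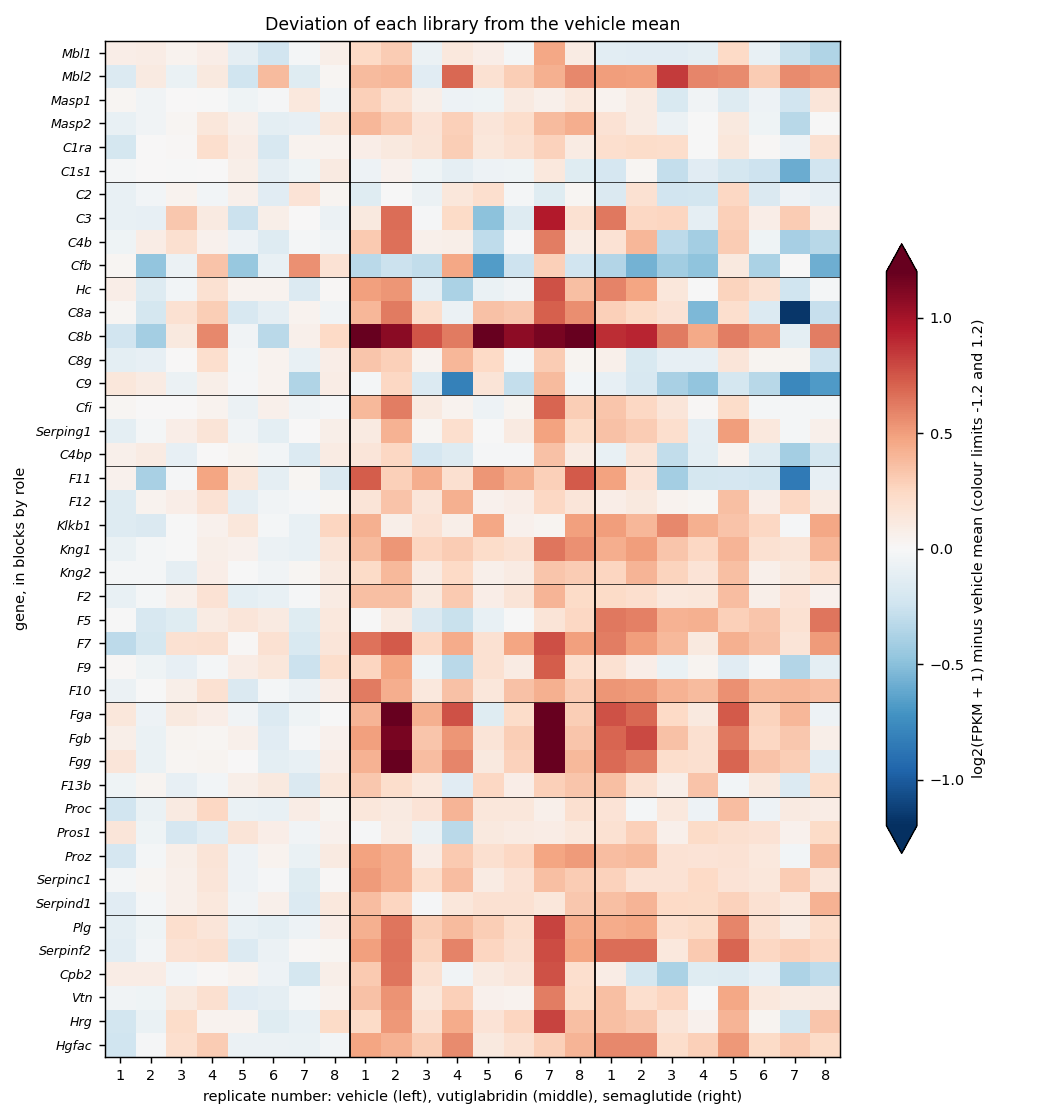
Deviation of log2(FPKM + 1) from the vehicle mean for each gene (rows, in blocks by role) in each of the 24 libraries (columns). Vutiglabridin replicates 2 and 7 are the darkest columns in the fibrinogen and fibrinolysis blocks, C8b is raised in all vutiglabridin libraries, and F5 and Mbl2 are raised in all semaglutide libraries.

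Tested directly against each other, the drugs differed in 9 of the 43 genes, with 8 higher with vutiglabridin and 1, F5, lower. Over all genes, 11.9% were higher and 12.6% lower, and the 8 higher comprised 6 of 18 complement genes and 2 of 25 clotting-side genes. The median difference of the 43 was 0.12, against 0.01 over all genes and -0.02 over the 10 hepatocyte markers. No gene had groups without overlap, whether above (1.13% of all genes) or below (2.27%). After rescaling to TPM, 6 genes were higher and 6 lower, and without vutiglabridin replicates 2 and 7 the counts were 5 and 1. C8b, Masp2, F11, Cpb2 and F5 kept their calls under every alternative run, whereas C1s1 and C8g lost theirs with TPM, C1s1, C8a, C8g and Mbl1 with quantile normalization, and C1s1, C8a and Mbl1 without those replicates. Mbl1 and C8g also lost their calls with GC and exon length trends removed (adjusted p = 0.0852 and 0.149), C8g with the exact Wilcoxon test (0.0836), and C1s1 in a fit of the 2 drug groups alone (0.0599) and with hepatocyte marker centring. The semaglutide columns of the table are written in another number format than the other columns. The labels and headers name no batch, and whether the format goes with a difference in values was not tested.

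Of the 5 terminal complement genes, 3 were higher with vutiglabridin than with semaglutide. C8a ranged from 61.9 to 171.5 FPKM with semaglutide (median 141.3) and from 133.0 to 230.7 with vutiglabridin (median 181.9), a log2 difference of 0.54 (SE 0.16, adjusted p = 0.0129). C8b was 72.6 ± 13.5 FPKM with vutiglabridin and 50.6 ± 10.2 with semaglutide (0.52, SE 0.14, adjusted p = 0.00924). C8g ranged from 166.0 to 217.8 with semaglutide (median 193.4) and from 194.4 to 260.7 with vutiglabridin (median 236.7), and the difference was 0.24 (SE 0.07, adjusted p = 0.0124). C9 differed by 0.33 and did not pass (adjusted p = 0.0601).

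In the lectin and classical pathways, Masp2 had 6 of 8 vutiglabridin values above its semaglutide range of 52.6 to 74.8 FPKM (median 66.3), with a log2 difference of 0.30 (SE 0.06, adjusted p = 0.00132). Mbl1 differed by 0.27 (SE 0.08, adjusted p = 0.0120) and C1s1 by 0.20 (SE 0.06, adjusted p = 0.0234), while Mbl2 differed by -0.19 (adjusted p = 0.153). F11 ranged from 11.6 to 31.0 FPKM with semaglutide (median 18.7) and from 25.2 to 37.1 with vutiglabridin (median 29.8), a difference of 0.62 (SE 0.14, adjusted p = 0.00163). Cpb2 ranged from 162.5 to 225.5 FPKM (median 187.3) and from 205.4 to 360.5 (median 243.5), and 7 of 8 vutiglabridin values were above the semaglutide range (0.49, SE 0.09, adjusted p = 0.000459). F5 ran the other way: its vutiglabridin values of 60.9 to 87.8 FPKM (median 73.4) lay below the semaglutide range in 7 of 8 libraries (-0.44, SE 0.08, adjusted p = 0.000238). The fibrinogen chains did not pass between the drugs, with 95% intervals of -0.15 to 0.61 for Fga, -0.12 to 0.48 for Fgb and -0.07 to 0.60 for Fgg.

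**Figure D4:**
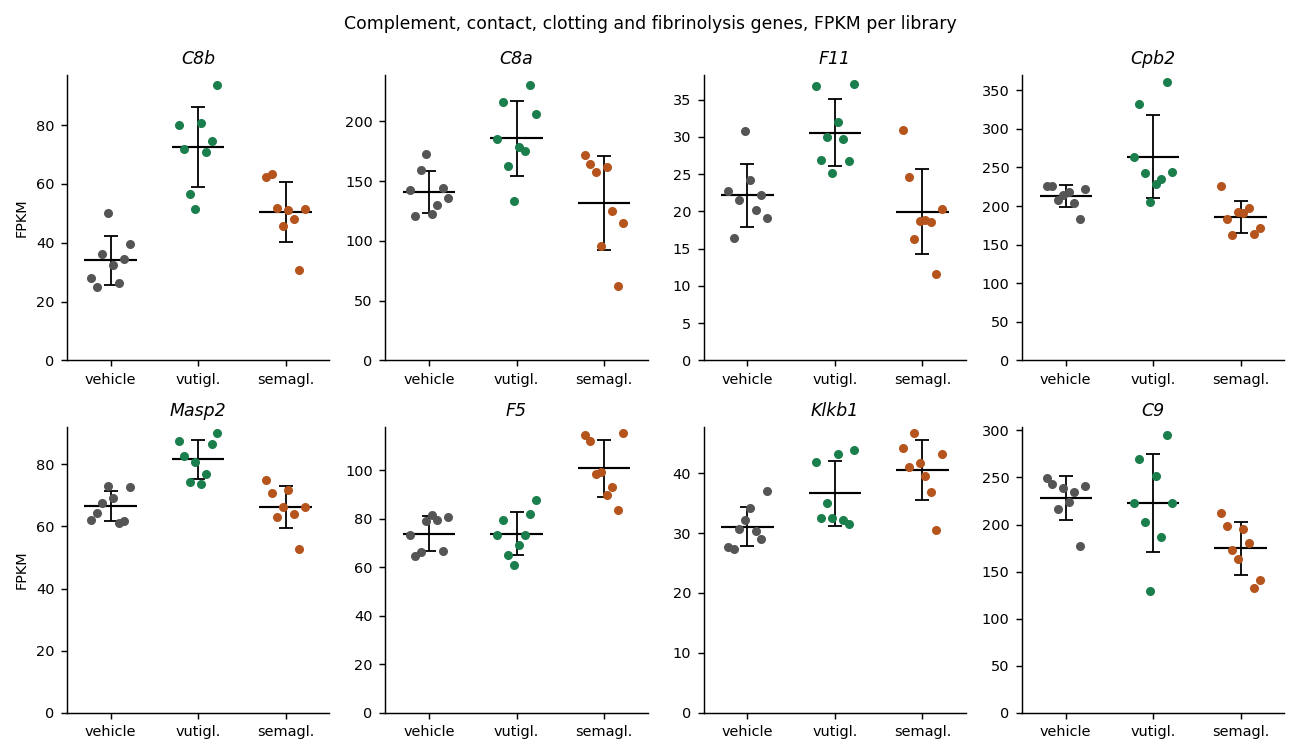
FPKM in each library (points) with mean and SD (bars) per group of 8, for 8 genes of the complement, contact, clotting and fibrinolysis groups. The 8 vutiglabridin values of C8b (51.7 to 93.8) and Masp2 (73.6 to 90.2) and the 8 semaglutide values of F5 (83.8 to 115.3) lie above all vehicle values.

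Ratios of paired genes within a library do not depend on how the library is scaled. C8a FPKM was 4.26 ± 0.660 times that of C8b with vehicle (SD, n = 8; range 3.43 to 5.06), 2.59 ± 0.358 times with vutiglabridin (2.20 to 3.10) and 2.56 ± 0.421 times with semaglutide (2.02 to 3.16). Neither drug group overlapped the vehicle range. The log2 ratio differed from vehicle by -0.71 with vutiglabridin and by -0.74 with semaglutide, each with an exact 2-sided permutation p of 0.000155, the smallest that 12870 splits can give, and an adjusted p of 0.00117. Between the drugs this ratio differed by 0.02 (exact permutation p = 0.843). These 15 tests, on 5 ratios in 3 comparisons, were chosen after the single-gene values had been seen, and their p-values were adjusted over the 15.

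The ratio of Mbl2 to Mbl1 was 2.29 ± 0.481 with vehicle, 2.62 ± 0.433 with vutiglabridin and 3.63 ± 0.568 with semaglutide. It was higher with semaglutide than with vehicle (log2 difference 0.67, exact permutation adjusted p = 0.00233) and than with vutiglabridin (-0.47 for vutiglabridin minus semaglutide, adjusted p = 0.00699). Vutiglabridin and vehicle differed by 0.20 (exact permutation adjusted p = 0.208), which became 0.29 (unadjusted p = 0.00684) without vehicle replicate 6. Kng1 relative to Kng2 was 4.61 ± 0.217 with vehicle, 5.17 ± 0.294 with vutiglabridin and 4.94 ± 0.198 with semaglutide, differences from vehicle of 0.16 and 0.10 (exact permutation adjusted p = 0.00233 and 0.0163). Fga relative to Fgb was 1.35 ± 0.0618 with vehicle, 1.39 ± 0.173 with vutiglabridin and 1.33 ± 0.0870 with semaglutide, and no test of Fga or Fgg against Fgb passed (lowest exact permutation adjusted p = 0.171).

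**Figure D5:**
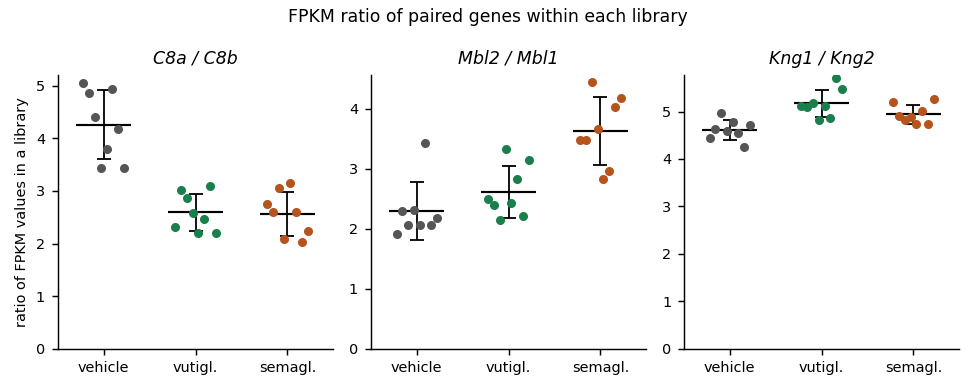
Ratio of FPKM values of paired genes in each library (points), with mean and SD (bars) per group of 8. The C8a to C8b ratio is 3.43 to 5.06 with vehicle and at most 3.10 with vutiglabridin and 3.16 with semaglutide.

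By mean FPKM, C3 was the most abundant of the 43 genes with vehicle and semaglutide and Fgg with vutiglabridin, and Cfb was the least abundant in each group. After C3, the most abundant with vehicle were Fgg (1121 ± 70.5 FPKM), Fga (1076 ± 76.6), Vtn (905 ± 71.7) and Fgb (799 ± 39.6), and the least abundant before Cfb were C2 and Masp1 (17.5 ± 0.737). C3, Fgg and Fga overlapped in their vehicle ranges. In total the 43 genes made up 3.28% to 3.62% of the FPKM total with vehicle (median 3.39%), 3.20% to 5.67% with vutiglabridin (median 3.71%) and 3.36% to 4.49% with semaglutide (median 3.75%). The highest shares were those of vutiglabridin replicates 7 and 2 (5.67% and 5.07%).

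Within groups, the genes varied least among vehicle libraries, with a median coefficient of variation of 7.83%, against 13.4% with vutiglabridin and 11.8% with semaglutide. The fibrinogen chains followed each other in each group: the median of their 3 pairwise Spearman correlations over 8 libraries was 0.81 with vehicle, 0.93 with vutiglabridin and 0.86 with semaglutide. Over all 903 pairs the medians were 0.26, 0.48 and 0.43. All genes of a library share its depth and scaling, so these correlations describe the libraries. Vutiglabridin replicate 7 was the highest of its group in 21 of the 43 genes, vehicle replicate 4 in 19, and semaglutide replicate 7 was the lowest of its group in 20.

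Other genes of the same pathways were taken from lists of related genes. Beside the counts of these lists, 6.53% of all genes were called higher and 8.78% lower with vutiglabridin. With semaglutide these shares were 14.3% and 12.7%. Of 9 further recognition genes tested, 3 fell and 2 rose with vutiglabridin, and 4 fell with semaglutide. C1qb, a chain of C1q made by macrophages, fell from 102 ± 31.3 FPKM to 66.1 ± 18.2 with vutiglabridin (log2 difference -0.62, adjusted p = 0.0145) and 64.7 ± 14.7 with semaglutide (-0.63, adjusted p = 0.00712), beside the fall in macrophage markers given above, whose part in it was not tested. Fcna, a ficolin, rose with vutiglabridin (0.66, adjusted p = 0.00644), and Colec11, a collectin, fell with semaglutide (-0.46, adjusted p = 0.00402). Of 9 further components and regulators, 2 rose with vutiglabridin, and 2 rose and 1 fell with semaglutide. C6, another part of the membrane attack complex, went from 68.1 ± 11.1 FPKM with vehicle to 93.9 ± 21.7 with vutiglabridin (0.44, adjusted p = 0.0429) and was 61.2 ± 13.5 with semaglutide, and the drugs differed by 0.62 (adjusted p = 0.00346). Cfd, the protease that activates factor B, fell with semaglutide (-1.82, adjusted p = 0.0137) from 8.12 ± 4.94 to 2.05 ± 3.11 FPKM.

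Complement receptors C3ar1, Itgax and Itgb2 fell with both drugs, and they were the only calls among 10 receptors and membrane regulators. Their fall, too, stood beside that of macrophage markers, whose part in it was not tested. Of 10 fibrinolysis-related genes outside the 43, 6 fell and 1 rose with vutiglabridin, and 6 fell and 2 rose with semaglutide, against 8.78% and 12.7% of all genes called lower. Serpinf1, a serpin related to antiplasmin, rose with both (0.36, adjusted p = 0.000711, and 0.19, adjusted p = 0.0365). Hgf, hepatocyte growth factor, fell with vutiglabridin (-0.24, adjusted p = 0.0273) and rose with semaglutide (0.58, adjusted p = 3.88e-06), at means of 0.828 FPKM with vehicle, 0.539 with vutiglabridin and 1.74 with semaglutide. Anxa2, a plasminogen-binding surface protein, fell from 45.0 ± 8.89 FPKM to 16.2 ± 6.89 with vutiglabridin (-1.48, adjusted p = 2.42e-05) and 15.4 ± 4.33 with semaglutide (-1.51, adjusted p = 2.89e-06). Plau, the urokinase activator of plasminogen, fell with vutiglabridin (-0.70, adjusted p = 0.000635) and with semaglutide (-0.45, adjusted p = 0.01075). Of the 7 further anticoagulant genes, 1 fell with vutiglabridin and 4 with semaglutide. Anxa5 fell with both (-0.65, adjusted p = 0.000378, and -0.68, adjusted p = 8.42e-05). Of 7 further clotting factors and receptors, F8 rose with semaglutide (0.32, adjusted p = 0.00362) and none was called with vutiglabridin. A count of 1 in 7 is near the 14.3% of all genes called higher with semaglutide. F3, tissue factor, differed between the drugs (-0.46, adjusted p = 0.0113), at 2.52 ± 0.776 FPKM with vutiglabridin and 3.75 ± 0.561 with semaglutide.

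Of 8 vitamin K cycle and processing genes, 3 rose and 1 fell with vutiglabridin, and 1 rose and 1 fell with semaglutide. Shares of all genes called higher and lower were 6.53% and 8.78% with vutiglabridin and 14.3% and 12.7% with semaglutide. The semaglutide counts of this list and the next were near or below those shares. Hpn, hepsin, a surface protease of hepatocytes, rose with vutiglabridin (0.31, adjusted p = 0.00142). Of 16 transcription factor and cytokine signalling genes, 3 rose with vutiglabridin, among them Hnf4a (0.33, adjusted p = 0.0164) and the interleukin-6 receptor Il6ra (0.43, adjusted p = 0.0159). With semaglutide 2 rose and 1 fell: Nr3c1, the glucocorticoid receptor (0.54, adjusted p = 0.000645), Il6st (0.28, adjusted p = 0.00203) and Cebpb (-0.63, adjusted p = 0.0315). Of 17 further acute phase genes, 1 rose with vutiglabridin, against 6.53% of all genes. With semaglutide 1 rose and 2 fell, against 14.3% and 12.7% of all genes. The 1 that rose was Alb, albumin, also listed among the hepatocyte markers (0.28, adjusted p = 0.0403). The 2 that fell were Orm2 and Lcn2 (-1.06 for Lcn2, adjusted p = 0.0358). Apcs, serum amyloid P, rose with vutiglabridin (0.86, adjusted p = 0.0162), with values from 73.5 to 364.7 FPKM against 70.4 to 101.8 with vehicle. Orm2 fell with semaglutide (-1.09, adjusted p = 0.0251). With vutiglabridin, Orm2 lay below the vehicle range in 6 libraries and above it in 2, and the drugs did not pass against each other (0.60, adjusted p = 0.230).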

How the data were processed

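RNA was measured in 24 mouse liver samples, 8 per group. Per the labels' protocols, RNA came from an RNeasy column kit and libraries from a stranded TruSeq mRNA kit, read in pairs on a NovaSeq instrument. The authors deposited 1 table of FPKM values. For the authors' own processing, the submitters' processing notes list HISAT2, StringTie and DESeq2 without roles or versions, and the genome build and any filters are not stated in the sources used here. Exon lengths are from GENCODE M21.

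FPKM was tested as log2(FPKM + 1) with limma 3.58.1 (R 4.3.3, mean trend, 1 fit over 3 groups) on genes of 0.5 FPKM or more in 8 samples or more, 2-sided, with Benjamini-Hochberg adjustment over 11562 genes at 0.05. The procedure was tested on simulated data in which each gene varied independently of the others. That setting does not cover libraries in which many genes move together. Depth was estimated from the steps that 1 fragment makes in FPKM of up to 0.5 in genes with up to 1500 bases of exon; counts were not used. The semaglutide columns differ from the others in number format. Full values were given to up to 8 called members with the lowest p per direction and comparison, to the fibrinogen chains and to Mbl1, Mbl2, Kng1 and Kng2; from each related list at most 3 genes with the lowest p in a comparison were named. Saa1 and Saa2 and the ratios were singled out after their values had been seen. The members, lists and rules were chosen with earlier results of these data known. Alternatives covered pseudocount, filter, scaling, variance model, sample weights, replicate block, a rank test, GC and length trends and leaving out each library. Members of near-identical pairs (Kng1 and Kng2, C4b, C1ra, C1s1) depend on how shared reads were assigned. A few results on genes of the related lists are not reported here.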

Additional observations from a re-analysis of the deposited data

Results flagged for a closer look

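Each of the 43 genes was examined for a single library far from the others of its group, by the gap between the most extreme value and its nearest neighbour relative to the range (critical value 0.526 for 8 samples). Of the 129 groups of 8, 5 passed, and chance alone flags about 1 in 20 such groups. Mbl1 was 129.5 FPKM in semaglutide replicate 5, where the next value was 102.9. Masp1 was 19.1 FPKM in vehicle replicate 7, above a next value of 17.7. C9 was 177.0 FPKM in the same vehicle replicate, where the next value was 216.6. Proc was 222.3 FPKM in vutiglabridin replicate 4, above a next value of 190.8. Pros1 was 19.7 FPKM in that library, below a next value of 23.7.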

How the results depend on the processing

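The numbers of members called moved most with scaling. For vutiglabridin minus vehicle (23 higher, 0 lower), they were 11 and 1 with TPM, 6 higher with quantile normalization, 14 higher without vutiglabridin replicates 2 and 7, and 4 and 8 with hepatocyte marker centring, which was chosen after seeing the data, as was leaving out replicates 2 and 7. For semaglutide minus vehicle (17 and 2), 4 were lower with TPM, and 2 were higher and 14 lower with hepatocyte centring. For vutiglabridin minus semaglutide (8 and 1), 6 were lower with TPM, 4 were higher and 7 lower with quantile normalization, 3 were lower with GC and exon length trends removed, with or without the replicate block, and 5 were higher without vutiglabridin replicates 2 and 7. TPM moved the median log2 difference of all genes to -0.13, -0.07 and -0.08 in the 3 comparisons and hepatocyte centring to -0.27 and -0.30 against vehicle. Over all genes TPM gave 233 higher and 2731 lower calls for vutiglabridin, against 755 and 1015. Hepatocyte centring called 7502 of all genes lower for vutiglabridin and 7280 for semaglutide. Leaving out 1 library at a time gave 17 to 25 higher for vutiglabridin, 13 to 17 higher and 1 to 2 lower for semaglutide, and 8 to 11 higher between the drugs.

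Called differences changed sign with quantile normalization for F12 (-0.012) and Vtn (-0.063) with vutiglabridin. With hepatocyte centring they changed sign for Cfi (-0.021), F12 (-0.088), Kng2 (-0.068), F2 (-0.034), Serpind1 (-0.089) and Vtn (-0.005) with vutiglabridin, and for Kng2 (-0.051), F2 (-0.114), Pros1 (-0.106), Proz (-0.063), Serpinc1 (-0.080) and Serpind1 (-0.002) with semaglutide. The cause was not tested. The replicate numbers did not pair the samples (correlations of same-numbered samples from -0.247 to 0.286), and with the replicate block the counts were 22 and 0, 16 and 2, and 8 and 1. The block ended the calls of Cfi and Cpb2 with vutiglabridin and of F2 with semaglutide, and added Klkb1 with vutiglabridin. Removing GC and exon length trends ended those of Cfi and Cpb2 with vutiglabridin, of Fgb, Pros1 and Serpinc1 with semaglutide, and of Mbl1 and C8g between the drugs, and with the block added it also ended that of C1s1 between the drugs and left Pros1 called; it also added calls of other members in each comparison. FPKM cannot show a change in total RNA per cell.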
